A study of Mus musculus with 40 samples.

Results

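The genes described here are the co-chaperones and chaperonin subunits of mouse liver: J-domain proteins (Dnaja, Dnajb and Dnajc genes), subunits of the CCT chaperonin (Cct genes and Tcp1), BAG proteins, FKBP proteins and the Hsp90 co-chaperones Stip1, Ahsa1, Chordc1 and Cacybp. They were chosen by symbol, without Dnajb1, Dnajb9, Bag3, Fkbp5 and pseudogenes, and with at least 200 counts summed over all 40 lane files. The symbols matched 74 rows, of which 11 fell below that minimum, so 63 of the 32544 genes in the table are members. All 63 passed the filter on low counts and were among the 12616 genes tested. Dnajc27 lay just outside the minimum with 147 counts, and Cct6b with 253 and Fkbp10 with 298 lay just inside.

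The samples were livers of male C57BL/6 mice raised germ-free, that is, without gut microbes, and taken at postnatal day 64. Mice received delta-valerobetaine (VB), a trimethylated betaine that gut bacteria make, or its vehicle for 6 weeks, while eating a control diet or a Western diet. This gave 4 groups of 5 mice: control diet with vehicle, control diet with VB, Western diet with vehicle and Western diet with VB. RNA was sequenced in 2 lanes per mouse, which were summed to 1 value.

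Heat shock proteins of the Hsp70 and Hsp90 classes fold proteins in cycles of ATP binding and release, and co-chaperones set the pace and the target of those cycles. J-domain proteins bring clients to Hsp70 and start its ATP hydrolysis, BAG proteins release the nucleotide again, and Stip1 hands clients from Hsp70 to Hsp90. The CCT chaperonin is a ring-shaped complex that folds actin and tubulin in its cavity. FKBP proteins are prolyl isomerases, and the larger ones dock on Hsp90. In hepatocytes, which secrete much of the plasma protein, cytosolic and endoplasmic reticulum (ER) forms of these proteins work side by side, and several are induced by heat shock factor or by the unfolded protein response.

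Summed counts ran from 16315342 to 24566686 per mouse. Hepatocyte markers dominated all 20 libraries, with 8 of 8 markers detected and a summed level of 47305 to 80552 CPM (counts per standard library size, the usual CPM scale, with TMM factors). The 5 adipocyte markers summed to 0.223 to 2.90 CPM on the control diet, 30.4 to 266 CPM in Western diet vehicle mice and 5.15 to 46.7 CPM in Western diet VB mice, and their part in the results was not tested. Of the 5 only Cfd, at 0.0893 to 2.71, 30.1 to 265 and 4.97 to 32.3 CPM in the same groups, passed the filter on low counts. The 21 clock genes also differed between groups. Taking the first principal component of these genes as a clock score, with SD 1 over the 20 mice, the group mean was lowest with vehicle on the control diet at -1.30 ± 0.39 (SD, n = 5) and highest with vehicle on the Western diet at 1.30 ± 0.13. The VB groups lay between, at -0.22 ± 0.26 on the control diet and 0.22 ± 0.42 on the Western diet. The time of day of collection is not given in the sources used here. Mouse 4 of the Western diet vehicle group stood apart, with 4.62% of counts from mitochondrial genes against 1.99% to 3.33% in the other mice. Major urinary protein genes took 15.8% to 25.2% of counts in Western diet VB mice and 6.25% to 13.7% elsewhere. In 1 lane file of mouse 1 of the Western diet VB group, the treatment label says vehicle while the title says VB, and the mouse was kept in the VB group. Library names differ in form between the diets, and any handling that follows them cannot be told apart from diet.

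Divided by exon length, Bag1, which releases nucleotide from Hsp70, was the highest at a mean of 64.1 CPM per kb over 20 mice, with a range of 48.1 to 83.7. Fkbp4 followed at 58.4 CPM per kb, Fkbp2 at 57.4 and Dnajc3 at 54.2. These neighbours overlapped in their ranges over mice. Among the chaperonin subunits Cct8 stood at 44.2 CPM per kb and Cct5 at 39.9, while Cct2, Tcp1, Cct4, Cct3 and Cct7 lay between 15.4 and 20.6. Subunits of the ring are equal in number in the protein complex, but exon length here is the union of all annotated exons, which lowers the value of genes with long alternative exons. Fkbp10 was the lowest member at 0.245 CPM per kb, just below Cct6b, a form of the ring subunit known from testis, at 0.336.

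**Figure D1:**
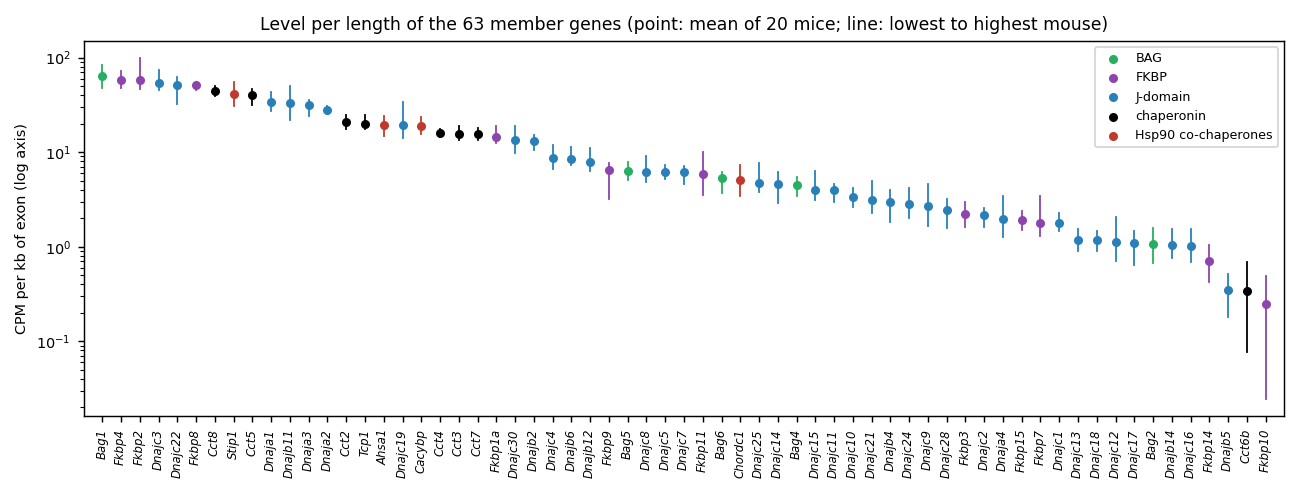
Level of each of the 63 member genes in CPM per kb of exon, on a log axis; points are means over 20 mice, lines run from the lowest to the highest mouse, and colours mark the class. Bag1 is the highest at 64.1 and Fkbp10 the lowest at 0.245, and J-domain genes are spread over most of the range.

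Of the 63 members, 15 changed in at least 1 of 5 comparisons and 48 in none, at an adjusted p under 0.05 in edgeR's quasi-likelihood test. VB on the control diet changed 0 members, where 0.151% of all genes tested were called (0.0555% raised and 0.0951% lowered). At an unadjusted p under 0.05 stood 5 members, all lower with VB, and DESeq2 and limma-voom also called 0. The smallest adjusted p there was 0.158, for Dnajb4, and log2 changes ran from -0.50 for Fkbp11 to 0.30 for Fkbp14. VB on the Western diet raised 6 members and lowered 0, which is 9.52% of members against 7.19% of all genes (3.33% raised and 3.86% lowered). The 6 were Stip1, Chordc1, Fkbp4, Cct7, Dnajb4 and Dnajb11.

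The Western diet raised 2 and lowered 8 members in vehicle mice, 15.9% against 16.5% of all genes (8.92% raised and 7.59% lowered). In VB mice it raised 4 members and lowered 1, 7.94% against 6.44% of all genes (3.23% raised and 3.22% lowered). The VB effect, Western minus control diet, differed between diets for 4 members, all in the positive direction, 6.35% against 7.64% of all genes (3.63% positive and 4.01% negative). Thus in each comparison the share of members called, both directions together, was near that of all genes. Split by direction the shares were less alike. With VB on the Western diet 6 members rose and 0 fell, and with the diet in vehicle mice 2 rose and 8 fell. In VB mice 4 rose with the diet and 1 fell, and the differences of the VB effects were 4 positive and 0 negative. These small counts were not tested. The comparisons share groups: the VB comparison on the Western diet and the diet comparison in vehicle mice both rest on the Western diet vehicle mice, and opposite signs in the pair are not separate observations.

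Median log2 changes over the 63 members were -0.02, 0.06, 0.0035, 0.09 and 0.08 in the order of the comparisons above, against 0.0016, -0.02, 0.02, 0.002 and -0.02 over all genes. Groups did not overlap for 3 members, all lower, with VB on the control diet (background 1.87% higher and 2.01% lower) and for 5, all higher, with VB on the Western diet (background 2.59% and 2.97%). With the diet they did not overlap for 1 higher and 8 lower members in vehicle mice (background 6.45% and 5.77%), and for 5 higher and 1 lower in VB mice (background 4.95% and 4.48%). Because liver RNA was taken whole, fewer cells of a type and less RNA per cell cannot be told apart. With the clock score as a covariate the counts of called members were 0, 0, 0, 3 and 0 in the same order. The 3 were Dnajc11, Bag2 and Fkbp11 with the diet in VB mice, and every other call of a member was lost. The score differs between groups, so its part and that of the groups cannot be told apart. Without mouse 4 of the Western diet vehicle group the counts were 0, 9, 11, 7 and 10, and without mouse 1 of the Western diet VB group, whose label conflicts, they were 0, 4, 10, 4 and 3.

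**Figure D2:**
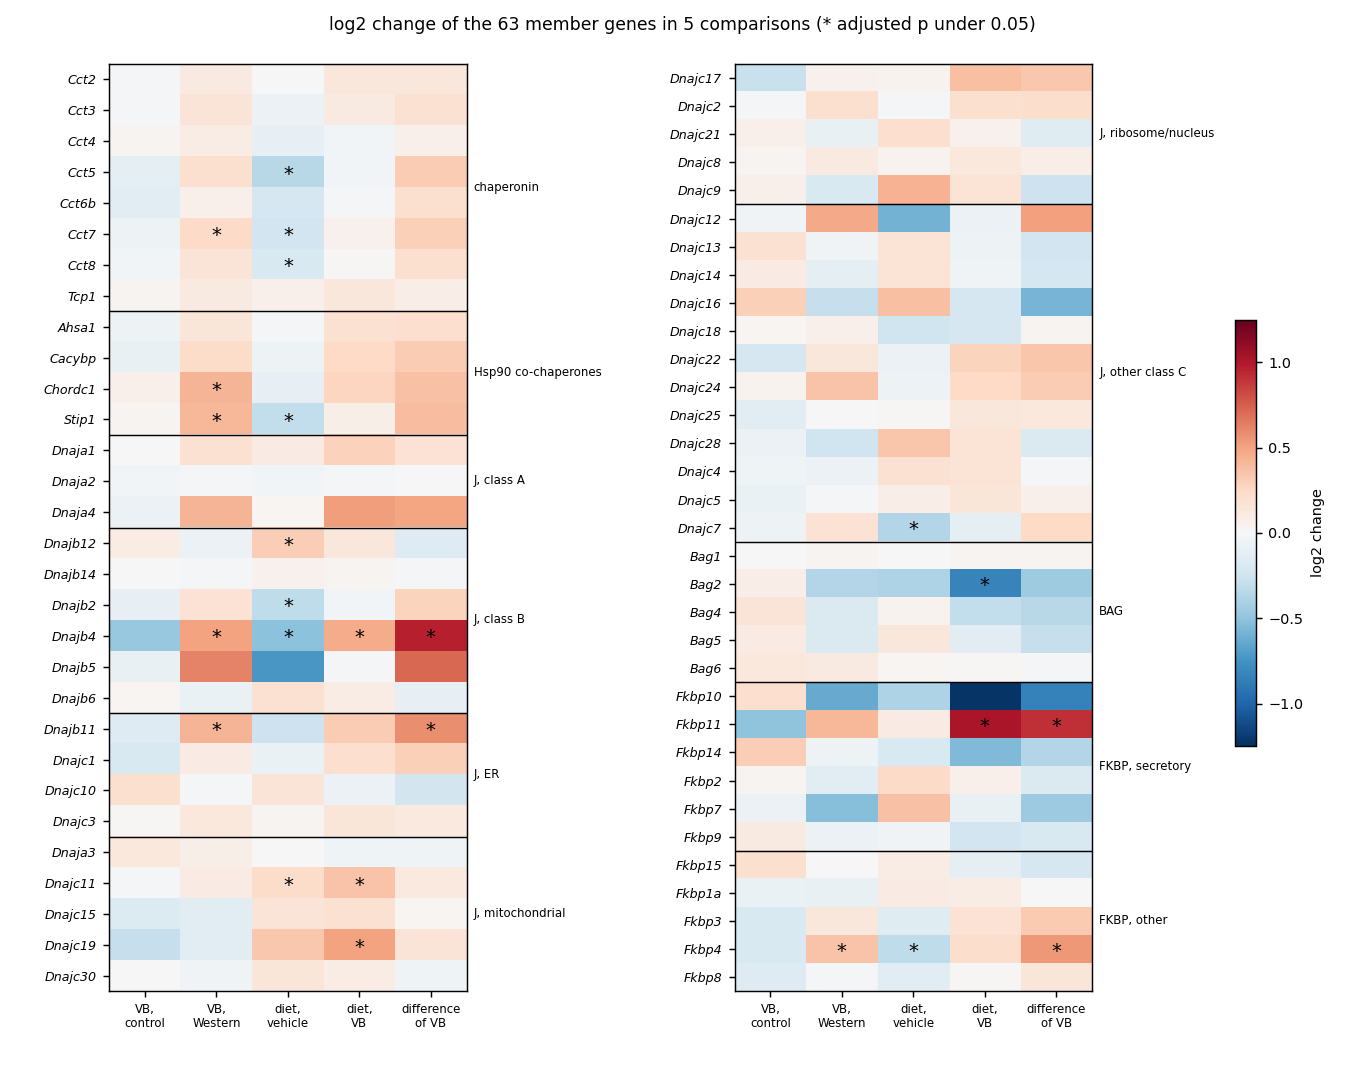
Log2 change of each of the 63 members (rows, grouped by class) in the 5 comparisons (columns: VB versus vehicle on the control and on the Western diet, Western versus control diet in vehicle and in VB mice, and the difference of the VB effects); red is higher, blue lower, and an asterisk marks an adjusted p under 0.05. The column for VB on the control diet holds 0 asterisks, and Dnajb4 holds 4 in the others.

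Promoter windows of 4 changed members are shown because they hold the letters of 2 units of a heat shock element, the motif of heat shock factor. Only Chordc1 of these 4 also held the 3-unit motif given below. Windows are from RefSeq on GRCm38.p6, 300 bases from 250 before to 50 after the start site, and 53 of the 63 members had 71 windows. The motif of 2 units, GAANNTTC or TTCNNGAA read on both strands, is in capitals. It lay in 15.1% of 32851 mouse windows, in 15.5% of member windows and in 4 of 19 windows (21.1%) of the 14 changed members that had one. Of the 53 members with a window 10 held it, among them Cct2, Dnaja1 and Fkbp7, which were not called in any comparison. The Chordc1 window is chr9:18292017-18292316 (plus strand), that of Dnajb4 chr3:152193796-152194095 (minus), that of Fkbp4 chr6:128438607-128438906 (minus) and that of Cct5 chr15:31601797-31602096 (minus). Dnajb4 and Cct5 each have another window, where the motif was not matched.
Chordc1: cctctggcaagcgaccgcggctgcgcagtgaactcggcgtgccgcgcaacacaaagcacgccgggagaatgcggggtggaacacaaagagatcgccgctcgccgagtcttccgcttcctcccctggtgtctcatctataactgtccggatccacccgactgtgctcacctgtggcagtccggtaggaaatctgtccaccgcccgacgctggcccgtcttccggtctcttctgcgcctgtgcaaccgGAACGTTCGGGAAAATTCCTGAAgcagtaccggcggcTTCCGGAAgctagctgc
Dnajb4: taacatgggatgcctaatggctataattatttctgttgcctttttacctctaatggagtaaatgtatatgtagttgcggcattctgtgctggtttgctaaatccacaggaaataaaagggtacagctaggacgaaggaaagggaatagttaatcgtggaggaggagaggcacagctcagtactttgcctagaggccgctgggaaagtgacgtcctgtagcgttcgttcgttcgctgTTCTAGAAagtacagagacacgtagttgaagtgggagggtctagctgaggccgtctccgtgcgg
Fkbp4: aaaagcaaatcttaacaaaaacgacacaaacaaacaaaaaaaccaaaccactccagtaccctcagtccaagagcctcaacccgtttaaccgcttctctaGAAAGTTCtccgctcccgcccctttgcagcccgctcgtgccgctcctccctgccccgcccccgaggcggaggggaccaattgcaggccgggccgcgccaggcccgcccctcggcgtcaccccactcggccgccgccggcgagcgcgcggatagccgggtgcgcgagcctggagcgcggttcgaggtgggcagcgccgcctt
Cct5: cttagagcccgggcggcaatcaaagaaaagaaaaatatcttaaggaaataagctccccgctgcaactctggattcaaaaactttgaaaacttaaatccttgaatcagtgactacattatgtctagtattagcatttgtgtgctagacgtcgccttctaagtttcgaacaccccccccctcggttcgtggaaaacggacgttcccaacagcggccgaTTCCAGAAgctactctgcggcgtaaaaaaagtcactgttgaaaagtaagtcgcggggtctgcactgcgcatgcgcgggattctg
Counted from 1 at the 5′ end, with 250 bases before the start site, Chordc1 holds 5 overlapping or neighbouring matches between bases 247 and 291. The match of Dnajb4 lies at bases 237 to 244, that of Fkbp4 at 100 to 107 and that of Cct5 at 217 to 224. A 3-unit motif, GAANNTTC followed directly by NNGAA, on both strands, contains the 2-unit one. It lay in 0.603% of all windows and in 3 of 71 member windows (4.23%), of the genes Chordc1 and Dnajb6. The Dnajb6 windows overlap and hold the same site. In Chordc1 the motif was matched at bases 247 to 259, 252 to 264 and 257 to 269. Of 8 Hsp70-class genes with a window 1 held the motif, Hsph1, and of the 4 genes left out by the rule 0 did. The ER stress element, CCAAT and CCACG with 9 bases of any kind between them, on both strands, lay in 0.119% of all windows and in 1 of the members, Dnajc3. A match describes these letters only.

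Of 4 Hsp90 co-chaperones, 2 rose with VB on the Western diet (3.33% of all genes rose) and 1 fell with the Western diet in vehicle mice (7.59% of all genes fell). All 4 log2 changes were above 0 in the first comparison and below 0 in the other. Stip1 (GRCm38 chromosome 19, 7020702 to 7039967, minus strand), the Hsp70 to Hsp90 adaptor, read 82.6, 82.8, 91.0, 89.9 and 97.4 CPM in control diet vehicle mice and 107, 80.8, 105, 83.8 and 77.9 in control diet VB mice. Stip1 in Western diet vehicle mice stood at 64.9, 73.5, 71.7, 74.1 and 74.6 CPM, and in Western diet VB mice at 87.9, 97.9, 87.8, 89.9 and 116. All 5 Western diet vehicle mice lay below every mouse of the other 3 groups, and the control diet VB mice split into a pair of high and 3 lower values. Stip1 rose with VB on the Western diet by a log2 change of 0.42 (SE 0.10, adjusted p = 0.0114) and had one of -0.31 (SE 0.10, adjusted p = 0.0361) with the Western diet in vehicle mice. With the clock score as a covariate neither call held. The difference of the VB effects was 0.38 (SE 0.14, adjusted p = 0.103) and did not pass. Its VB call held when any 1 mouse was left out; its diet call was lost without mouse 3, 4 or 5 of the control diet vehicle group or mouse 1 or 3 of the Western diet vehicle group, with an adjusted p of up to 0.0876.

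Chordc1 (chromosome 9, 18292125 to 18317442, plus strand), a zinc-binding partner of Hsp90 whose promoter is shown above, read 33.3, 36.2, 25.5, 43.6 and 31.1 CPM in Western diet vehicle mice and 37.3, 48.0, 41.1, 46.1 and 55.4 in Western diet VB mice. Mouse 4 of the vehicle group was as high as the VB mice, so these groups overlapped. On the control diet the lowest, median and highest mouse were 33.8, 35.3 and 41.5 CPM with vehicle and 34.1, 34.1 and 44.5 with VB. The log2 change with VB on the Western diet was 0.43 (SE 0.13, adjusted p = 0.0423). It was 0.53 with an adjusted p of 0.00672 without that mouse 4 and 0.35 with an adjusted p of 0.133 without mouse 5 of the VB group, and it lost the call on leaving out 10 of the 20 mice in turn. These were mice 2, 3 and 4 of the control diet vehicle group, mice 1, 2, 3 and 5 of the Western diet vehicle group and mice 2, 4 and 5 of the Western diet VB group.

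Cacybp, a calcyclin-binding protein that also associates with Hsp90, read 43.5, 43.6, 39.4, 52.2 and 37.2 CPM in Western diet vehicle mice and 48.5, 49.0, 45.8, 56.0 and 52.8 in Western diet VB mice. Again mouse 4 of the vehicle group was among the high values. Its log2 change was 0.22 (SE 0.09, adjusted p = 0.138) with all mice and 0.30 with an adjusted p of 0.0174 without mouse 4. Ahsa1, which speeds the ATPase of Hsp90, averaged 84.3 ± 7.57, 80.5 ± 10.9, 82.8 ± 5.31 and 91.7 ± 9.47 CPM (SD, n = 5) in control diet vehicle, control diet VB, Western diet vehicle and Western diet VB mice. Its groups overlapped in every comparison, with adjusted p-values of 0.256 and above.

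Fkbp4 (chromosome 6, 128429735 to 128438677, minus strand), the immunophilin that sits on Hsp90 in steroid receptor complexes, had ranges that did not overlap in any of the 4 comparisons of group pairs. Fkbp4 read 172, 173, 182, 185 and 169.5 CPM in control diet vehicle mice and 169, 145, 165, 159 and 134 in control diet VB mice. With the Western diet Fkbp4 read 143, 141, 157, 133 and 132 CPM in vehicle mice and 179.9, 171, 177, 175 and 200.1 in VB mice. The order of the vehicle groups was reversed in VB mice: control diet above Western diet with vehicle, and Western diet above control diet with VB, with no overlap in either pair. VB raised it on the Western diet by a log2 change of 0.35 (SE 0.08, adjusted p = 0.00594), and its log2 change with the diet in vehicle mice was -0.32 (SE 0.08, adjusted p = 0.00552). On the control diet the VB change was -0.19 (SE 0.08, adjusted p = 0.367) and did not pass, although the groups did not overlap. The VB effects differed between diets by 0.54 (SE 0.11, adjusted p = 0.00335), and all 3 calls held on leaving out any 1 mouse. All 3 were lost with the clock score as a covariate, at adjusted p-values of 0.357 to 0.935. The diet change in VB mice was 0.22 (SE 0.08, adjusted p = 0.0843).

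**Figure D3:**
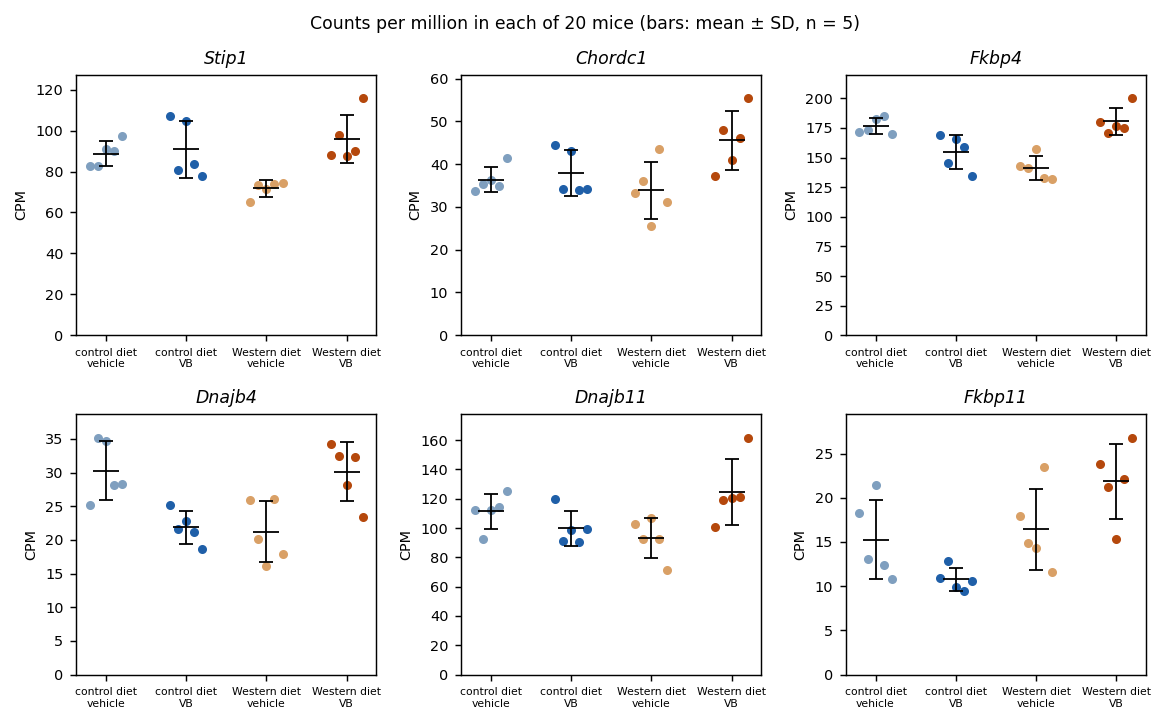
CPM of 6 members in each of the 20 mice (points) with the group mean and SD (bars, n = 5), by diet and treatment; each vertical axis starts at 0. For Fkbp4 and Stip1 the Western diet VB mice lie above the Western diet vehicle mice with no overlap, and mouse 5 of the Western diet VB group is the highest of its group for Stip1, Chordc1, Fkbp4, Dnajb11 and Fkbp11.

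The CCT chaperonin had 8 tested subunit genes: 3 fell with the Western diet in vehicle mice (7.59% of all genes fell), 1 rose with VB on the Western diet (3.33% of all genes rose), and 0 changed in the other comparisons. These 8 genes are not a full ring: Cct6b is a testis form, and not every subunit of the ring was analysed here. All 8 log2 changes with VB on the Western diet were above 0, from 0.06 to 0.23, and 6 of 8 with the diet in vehicle mice were below 0, beside 35 of 63 members and 5958 of 12616 genes above 0, and 29 of 63 members and 5977 of 12616 genes below 0, in those comparisons. The 8 genes together read 689 ± 17.6 CPM (SD, n = 5) in control diet vehicle mice, 672 ± 32.6 in control diet VB mice, 623 ± 8.57 in Western diet vehicle mice and 696 ± 48.0 in Western diet VB mice.

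Cct5 (chromosome 15, 31590800 to 31601804, minus strand), the epsilon subunit, read 124, 129, 117, 121 and 121 CPM in control diet vehicle mice and 124, 106, 114, 112 and 108 in control diet VB mice. Cct5 in Western diet vehicle mice stood at 102, 93.4, 98.1, 88.1 and 98.6 CPM, and in Western diet VB mice at 109, 108, 102, 106 and 125. The Western diet vehicle mice were the low group, below every mouse of the other groups, with the narrowest gap between their mouse 1 and mouse 3 of the Western diet VB group. Its log2 change with the diet in vehicle mice was -0.35 (SE 0.07, adjusted p = 0.0013), a call that held on leaving out any 1 mouse. That call was lost with the clock score as a covariate, at an adjusted p of 0.996. With VB on the Western diet the change was 0.20 (SE 0.07, adjusted p = 0.0985), and the difference of the VB effects was 0.32 (SE 0.10, adjusted p = 0.057); neither passed. DESeq2 called both, at adjusted p-values of 0.0272 and 0.00803. The difference also passed with RLE or upper-quartile scaling, limma-voom, a filter at a mean of 1 CPM, or without mouse 1 of the control diet VB group or mouse 4 of the Western diet vehicle group, at adjusted p-values of 0.0403 to 0.0487.

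Cct7 (chromosome 6, 85451514 to 85468475, plus strand), the eta subunit, read 94.7, 90.2, 90.9, 97.2 and 90.4 CPM in Western diet vehicle mice, all below the 114, 103, 111, 106 and 115 of control diet vehicle mice. Cct7 with VB read 114, 92.5, 109.7, 105 and 105 CPM on the control diet and 106, 107, 101, 108 and 123 on the Western diet. Apart from mouse 2 of the control diet VB group at 92.5 CPM, every mouse of the other groups lay above the Western diet vehicle mice. The diet change in vehicle mice was -0.24 (SE 0.07, adjusted p = 0.0212), lost at an adjusted p of 0.0511 without mouse 1 of the control diet vehicle group, and with the clock score as a covariate its value turned to 0.0059. The VB change on the Western diet was 0.23 (SE 0.07, adjusted p = 0.0487) and lost the call on leaving out any of 17 of the 20 mice, with an adjusted p of up to 0.147 without mouse 5 of the VB group. The 3 mice whose removal kept it were mouse 2 of the control diet VB group, mouse 4 of the Western diet vehicle group and mouse 3 of the Western diet VB group.

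Cct8 (chromosome 16, 87483326 to 87495873, minus strand), the theta subunit, read 137, 139, 144, 142 and 148 CPM in control diet vehicle mice and 128, 126, 123, 126 and 121 in Western diet vehicle mice. These groups did not overlap, and the spread within each was small, at 142 ± 4.16 and 125 ± 2.97 (mean and SD, n = 5). The log2 change was -0.19 (SE 0.06, adjusted p = 0.0481); it kept its call without mouse 1 of the control diet VB group, mouse 4 of the Western diet vehicle group or mouse 2 or 5 of the Western diet VB group and lost it without any of the other 16, with an adjusted p of up to 0.0969. Cct7 overlaps Pradc1, and Cct8 overlaps Usp16, on the opposite strand, and whether reads were counted by strand is not given in the sources used here.

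The other subunits did not pass in any comparison. Tcp1, the alpha subunit, averaged 95.9 ± 6.98, 97.9 ± 2.93, 100.1 ± 3.25 and 108 ± 9.67 CPM (SD, n = 5) in control diet vehicle, control diet VB, Western diet vehicle and Western diet VB mice. Its log2 change with the diet in vehicle mice was 0.06 (SE 0.07), beside -0.35 (SE 0.07) for Cct5. Cct2, Cct3 and Cct4 changed by 0.00, -0.08 and -0.10 in that comparison, with adjusted p-values of 0.988, 0.572 and 0.372. Cct6b, at 0.591 to 0.681 CPM in the group means, had too few reads for a difference of this size to show, with an SE of 0.48 in that comparison.

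With group means taken out, log CPM of 7 ring genes (without Cct6b) had a median correlation of 0.463 over 20 mice (21 pairs, 0.115 to 0.759). Over all pairs of members the median was 0.045, with a range of -0.921 to 0.945. In the 2 most extreme mice most ring genes stood at one end of their group. Mouse 5 of the Western diet VB group was the highest of its 5 mice for 7 of 8 subunits, where it was highest for 25 of 63 members and for 22.0% of all genes tested. Mouse 2 of the control diet VB group was the lowest of its group for 6 of 8 subunits, against 20.1% of all genes. Subunits of a mouse share its library, so these are 2 animals and not many observations.

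**Figure D4:**
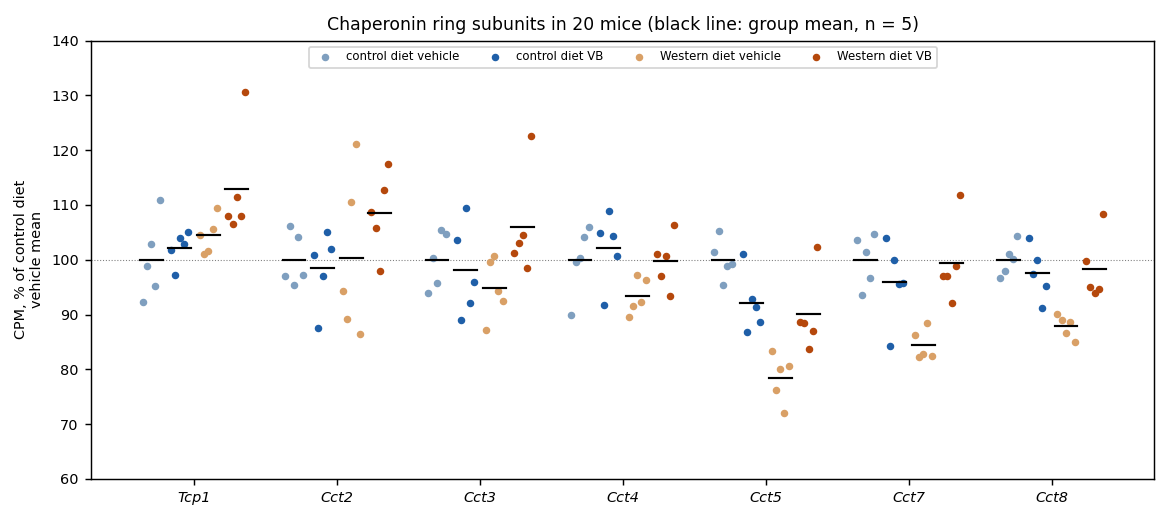
CPM of 7 chaperonin subunit genes in each of 20 mice, as a percentage of the mean of control diet vehicle mice (dotted line at 100; the vertical axis starts at 60 because points, not bars, are drawn); black lines are group means, n = 5. The mean of Western diet vehicle mice is the lowest of the 4 for Cct3, Cct4, Cct5, Cct7 and Cct8 and not for Tcp1 or Cct2, and the change passed the test for Cct5, Cct7 and Cct8.

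Tubulins and actins, the substrates of the ring, are given as a list of 10. With the Western diet in vehicle mice 6 fell and 0 rose (7.59% and 8.92% of all genes), with a median log2 change of -0.81 over the list. Of the 10 log2 changes 2 were above 0. The actins Actb and Actg1 averaged 280 ± 28.5 and 38.6 ± 9.55 CPM per kb (SD, n = 5) in control diet vehicle mice. In Western diet vehicle mice they averaged 271 ± 48.8 and 50.3 ± 7.30. The smallest p-values were those of Tuba4a, with a log2 change of -1.36 (SE 0.15, adjusted p = 9.58e-07), Tubb2a with -2.25 (SE 0.26, adjusted p = 4.31e-06) and Tuba1b with -0.86 (SE 0.13, adjusted p = 5.63e-05). With VB on the Western diet 2 rose and 0 fell (3.33% and 3.86% of all genes). With VB on the control diet 0 passed, while all 10 log2 changes were below 0, with a median of -0.32, and 5 of 10 had lower groups with no overlap, where 2.01% of all genes did. Of 12 prefoldin subunits and other helpers of the ring, 1 rose with the diet in vehicle mice, Pfdn2 by 0.41 (SE 0.13, adjusted p = 0.035), and 0 changed with VB on either diet.

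The class B J-domain proteins on the cytosolic side had 6 members, of which 3 changed, and Dnajb11 of the ER lumen is given with the ER proteins. With the diet in vehicle mice 1 rose and 2 fell (8.92% and 7.59% of all genes). In VB mice 1 rose with the diet (3.23%), and 1 rose with VB on the Western diet (3.33%). The difference of the VB effects was called for 1 (3.63% positive). Dnajb4 (chromosome 3, 152178511 to 152210302, minus strand), which activates Hsp70 and is a near relative of Dnajb1, read 25.2, 35.2, 34.7, 28.2 and 28.3 CPM in control diet vehicle mice and 25.2, 21.6, 22.8, 21.1 and 18.6 in control diet VB mice. Dnajb4 with the Western diet read 25.9, 20.1, 16.1, 26.1 and 17.9 CPM in vehicle mice and 34.2, 32.5, 28.1, 32.4 and 23.4 in VB mice. Levels were high in control diet vehicle and Western diet VB mice and low in the other pair of groups, and the ranges overlapped in all 4 comparisons of groups. VB changed it by 0.50 (SE 0.14, adjusted p = 0.0269) on the Western diet and by -0.47 (SE 0.14, adjusted p = 0.158) on the control diet, where it did not pass. The difference of the VB effects was 0.97 (SE 0.19, adjusted p = 0.00331), the largest positive value among members.

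With the Western diet Dnajb4 fell in vehicle mice, with a log2 change of -0.51 (SE 0.14, adjusted p = 0.0119), and rose in VB mice, with 0.46 (SE 0.14, adjusted p = 0.0444). The difference of the VB effects and the fall in vehicle mice held their calls on leaving out any 1 mouse. Both were lost with the clock score as a covariate, at adjusted p-values of 0.51 and 0.71. The rise with VB on the Western diet lost its call without mouse 2, 3 or 5 of the Western diet vehicle group or mouse 1 or 2 of the Western diet VB group, with an adjusted p of up to 0.0767. The rise with the diet in VB mice lost it on leaving out 11 of the 20 mice, with an adjusted p of up to 0.112; the 9 whose removal kept it were mice 1, 2 and 3 of the control diet vehicle group, mouse 1 of the control diet VB group, mice 1, 3, 4 and 5 of the Western diet vehicle group and mouse 5 of the Western diet VB group.

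Dnajb2 (chromosome 1, 75236406 to 75245692, plus strand), a J protein that binds ubiquitin, read 59.3, 63.9, 59.3, 63.5 and 62.4 CPM in control diet vehicle mice and 45.8, 54.4, 53.8, 48.4 and 44.8 in Western diet vehicle mice. All 5 Western diet mice were below the control diet mice. With VB the diet groups overlapped, at 57.5 ± 3.89 and 56.0 ± 2.31 CPM (SD, n = 5) on the control and Western diet. The diet change was -0.32 (SE 0.07, adjusted p = 0.00386) in vehicle mice, held on leaving out any 1 mouse, and -0.04 (SE 0.07, adjusted p = 0.803) in VB mice. The call in vehicle mice was lost with the clock score as a covariate, at an adjusted p of 0.829.

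Dnajb12 (chromosome 10, 59879556 to 59899302, plus strand), an ER membrane J protein that faces the cytosol, read 22.4, 22.5, 21.2, 25.7 and 25.7 CPM in control diet vehicle mice and 27.5, 29.1, 25.9, 37.2 and 25.6 in Western diet vehicle mice. The highest value was again that of mouse 4, and the lowest Western diet mice overlapped the control diet mice. The diet change in vehicle mice was 0.30 (SE 0.10, adjusted p = 0.0378); without mouse 4 it was 0.19 with an adjusted p of 0.116, and the call was also lost without mouse 1, 2 or 3 of the control diet vehicle group or mouse 2 of the Western diet vehicle group. Dnajb5, Dnajb6 and Dnajb14 of this class did not pass in any comparison. Dnajb5 had log2 changes of 0.62 with VB on the Western diet and -0.72 with the diet in vehicle mice, at adjusted p-values of 0.204 and 0.078 and a level of 0.350 CPM per kb. The diet change of Dnajb5 passed with DESeq2, and without mouse 3 of the control diet vehicle group or mouse 5 of the Western diet vehicle group, at adjusted p-values of 0.0201 to 0.0495. Dnajb5 was named after its values were seen.

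Class A J proteins of the cytosol, general Hsp70 partners, had 3 members, and 0 passed in any comparison; the mitochondrial Dnaja3 is given with its compartment. Dnaja1, the highest of them in CPM, averaged 269 ± 21.3, 270.3 ± 30.4, 288 ± 53.3 and 329.6 ± 32.5 CPM (SD, n = 5) in control diet vehicle, control diet VB, Western diet vehicle and Western diet VB mice. Its largest change was 0.29 (SE 0.11, adjusted p = 0.125) with the diet in VB mice. Western diet vehicle mouse 4 was at 372 CPM, level with the highest VB mouse. The VB change on the Western diet was 0.19 (SE 0.11, adjusted p = 0.351) with all mice and 0.30 with an adjusted p of 0.0471 without that mouse. Dnaja4, named after its values were seen, passed with the diet in VB mice only without mouse 1 of the control diet VB group or mouse 1 of the Western diet VB group. The adjusted p-values were 0.0163 and 0.0335.

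ER J proteins had 4 members, of which 1 changed. The change was called with VB on the Western diet (3.33% of all genes rose) and for the difference of the VB effects (3.63% positive). Dnajb11 (chromosome 16, 22857845 to 22879634, plus strand), the soluble J protein that works with the ER chaperone Hspa5, read 102, 92.4, 107, 92.4 and 71.3 CPM in Western diet vehicle mice and 101, 119, 120.5, 121 and 162 in Western diet VB mice. Dnajb11 on the control diet read 112, 92.5, 112, 115 and 126 CPM with vehicle and 119.7, 91.3, 98.4, 90.4 and 99.4 with VB. Mouse 5 of the Western diet VB group was well above the rest, and the Western diet groups overlapped. The VB change on the Western diet was 0.42 (SE 0.12, adjusted p = 0.0374), and the difference of the VB effects was 0.58 (SE 0.17, adjusted p = 0.0411). Without that mouse 5 these were 0.31 with an adjusted p of 0.133 and 0.47 with one of 0.0808; the first was also lost without mouse 2 or 5 of the Western diet vehicle group or mouse 2 or 3 of the Western diet VB group, and the second kept its call on leaving out 7 of the 20 mice (mouse 2 of the control diet vehicle group, mouse 1 of the control diet VB group, mice 1, 3 and 4 of the Western diet vehicle group, and mice 1 and 4 of the Western diet VB group).

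Dnajc3, an inhibitor of the kinase Eif2ak3 and a J protein of the ER lumen, whose window held the ER stress element, averaged 268 ± 19.8, 271 ± 20.4, 275 ± 27.5 and 301 ± 49.2 CPM (SD, n = 5) in control diet vehicle, control diet VB, Western diet vehicle and Western diet VB mice. Its groups overlapped in every comparison, and its smallest adjusted p was 0.39. Here too mouse 5 of the Western diet VB group was the highest, at 378 CPM.

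Of 5 mitochondrial J proteins, 1 rose with the Western diet in vehicle mice (8.92% of all genes rose) and 2 in VB mice (3.23%). With VB on either diet 0 changed. Dnajc11 (chromosome 4, 151933691 to 151982137, plus strand), a component of the outer membrane bridge to the cristae complex, read 37.8, 39.1, 40.6, 34.8 and 39.4 CPM in control diet vehicle mice and 44.8, 42.3, 45.4, 45.0 and 47.2 in Western diet vehicle mice. Dnajc11 with VB read 37.3, 38.9, 38.5, 31.3 and 42.8 CPM on the control diet and 48.6, 47.7, 48.9, 49.4 and 46.7 on the Western diet. Western diet mice were above control diet mice in both treatments, with no overlap. The diet change was 0.23 (SE 0.08, adjusted p = 0.04) in vehicle mice and 0.35 (SE 0.08, adjusted p = 0.00543) in VB mice, and the VB effects did not differ detectably, by 0.12 (SE 0.11, adjusted p = 0.567). The call in VB mice held on leaving out any 1 mouse and with the clock score as a covariate (0.33, adjusted p 0.0266), while the call in vehicle mice was lost on leaving out 9 of the 20 mice, with an adjusted p of up to 0.111: mice 1, 2, 4 and 5 of the control diet vehicle group, mice 1, 2, 3 and 5 of the Western diet vehicle group and mouse 2 of the Western diet VB group.

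Dnajc19 (chromosome 3, 34056020 to 34081321, minus strand), an inner membrane J protein tied to protein import, read 60.1, 59.7, 56.9, 60.7 and 62.1 CPM in control diet VB mice and 91.6, 77.7, 83.5, 103 and 68.2 in Western diet VB mice. Dnajc19 with vehicle read 83.5, 69.6, 72.2, 73.5 and 68.0 CPM on the control diet and 91.3, 87.7, 80.3, 137 and 67.9 on the Western diet. The control diet VB mice were the low and narrow group, below all others, and Western diet vehicle mouse 4 was the highest of all 20. The diet change in VB mice was 0.50 (SE 0.14, adjusted p = 0.0293), and in vehicle mice 0.34 (SE 0.14, adjusted p = 0.0945), which passed only without mouse 5 of the Western diet vehicle group (0.43, adjusted p = 0.0258). The first lost its call without any 1 mouse of the control diet VB group or without mouse 1 or 4 of the Western diet VB group, with an adjusted p of up to 0.0878. Dnajc19 overlaps Fxr1 on the opposite strand. Dnaja3, the matrix partner of mitochondrial Hsp70, had group means from 117 ± 14.1 CPM in control diet vehicle mice to 128 ± 8.56 in control diet VB mice and did not pass in any comparison.

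Of the 5 J proteins of the ribosome or nucleus and the 12 other class C genes, 1 changed. It fell with the Western diet in vehicle mice, where 7.59% of all genes fell. Dnajc7 (chromosome 11, 100582818 to 100620168, minus strand), which binds both Hsp70 and Hsp90, read 29.3, 33.2, 34.4, 33.4 and 34.1 CPM in control diet vehicle mice and 25.9, 22.5, 25.0, 31.3 and 22.9 in Western diet vehicle mice. Only the Western diet vehicle mouse 4 reached into the control diet range. With VB the level was 31.4 ± 1.69 CPM on the control diet and 28.9 ± 2.84 on the Western diet (SD, n = 5). The diet change in vehicle mice was -0.37 (SE 0.09, adjusted p = 0.0073), held on leaving out any 1 mouse, and was -0.46 with an adjusted p of 2.66e-04 without mouse 4. Its call was lost with the clock score as a covariate, at an adjusted p of 0.917. Dnajc7 overlaps Cnp and Nkiras2 on the opposite strand.

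Dnajc22, the highest of the other class C genes, averaged 99.2 ± 7.07, 85.9 ± 15.2, 94.5 ± 6.08 and 104 ± 8.55 CPM in the same order of groups, and Dnajc8, a splicing factor and the highest of the ribosomal and nuclear ones, 15.1 ± 1.91, 15.4 ± 1.04, 15.6 ± 4.43 and 16.8 ± 1.78. Neither passed in any comparison, nor did any of the 5 ribosomal and nuclear genes. Dnajc12, which did not pass and was named after its values were seen, read 6.35, 5.73, 4.84, 5.84 and 5.54 CPM in control diet vehicle mice and 4.18, 3.59, 4.40, 3.22 and 3.40 in Western diet vehicle mice, with no overlap. Its log2 change was -0.59 (SE 0.22, adjusted p = 0.0703); it passed with DESeq2, with only the groups compared, with the mouse number as a block, and without mouse 1 or 3 of the Western diet VB group, at adjusted p-values of 0.0159 to 0.049. Medians over the 12 other class C genes were between -0.05 and 0.05 in all 5 comparisons.

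BAG proteins had 5 members, and 1 changed, lower with the Western diet in VB mice (3.22% of all genes fell). Bag2 (chromosome 1, 33745484 to 33757795, minus strand), which inhibits the ubiquitin ligase that works with Hsp70, read 4.08, 4.04, 4.08, 3.76 and 3.01 CPM in control diet vehicle mice and 4.82, 3.20, 4.12, 4.28 and 3.70 in control diet VB mice. Bag2 with the Western diet read 2.20, 2.74, 2.91, 3.15 and 3.57 CPM in vehicle mice and 2.05, 2.23, 2.25, 2.68 and 2.07 in VB mice. The Western diet VB mice were all below both control diet groups, and the Western diet vehicle mice spanned the gap. Its log2 change with the diet in VB mice was -0.83 (SE 0.16, adjusted p = 0.00213), which held on leaving out any 1 mouse and with the clock score as a covariate (-0.86, adjusted p 0.00762). In vehicle mice the change was -0.39 (SE 0.16, adjusted p = 0.107), and the VB effects did not differ detectably between diets, by -0.45 (SE 0.23, adjusted p = 0.267). Bag1, the most abundant, averaged 85.9 ± 2.41, 85.9 ± 4.25, 85.9 ± 17.5 and 88.2 ± 9.53 CPM (SD, n = 5) in the same order of groups as above, and its log2 changes were between 0.00 and 0.04 in all 5 comparisons with SEs of 0.11 to 0.15.

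FKBP proteins of the secretory pathway had 6 members, of which 1 changed. The change was called with the diet in VB mice (3.23% of all genes rose) and for the difference of the VB effects (3.63% positive). Fkbp11 (chromosome 15, 98724366 to 98728198, minus strand), an ER prolyl isomerase known from secretory cells, read 18.3, 13.1, 21.5, 12.4 and 10.8 CPM in control diet vehicle mice and 10.9, 12.9, 9.96, 9.50 and 10.6 in control diet VB mice. Fkbp11 with the Western diet read 18, 14.9, 14.3, 23.5 and 11.6 CPM in vehicle mice and 23.8, 21.2, 15.3, 22.1 and 26.8 in VB mice. The control diet VB mice were low and close together, and every Western diet VB mouse was above them. With the diet in VB mice Fkbp11 rose by 1.02 (SE 0.19, adjusted p = 0.00183), the largest called change of a member in the 4 comparisons of group pairs, and this held on leaving out any 1 mouse and with the clock score as a covariate (1.05, adjusted p 0.00506). VB changed it by -0.50 (SE 0.19, adjusted p = 0.34) on the control diet and by 0.41 (SE 0.19, adjusted p = 0.22) on the Western diet, neither of which passed, while their difference did, at 0.91 (SE 0.27, adjusted p = 0.0405). That difference lost its call on leaving out 13 of the 20 mice, with an adjusted p of up to 0.0885; the 7 whose removal kept it were mice 2, 4 and 5 of the control diet vehicle group, mouse 2 of the control diet VB group, mice 1 and 4 of the Western diet vehicle group and mouse 3 of the Western diet VB group.

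Fkbp2, the most abundant secretory FKBP, averaged 88.0 ± 6.03, 90.3 ± 3.60, 104 ± 34.2 and 94.3 ± 12.1 CPM in the same order, with Western diet vehicle mouse 4 at 163 CPM apart from its group, and did not pass. Fkbp10 had the largest log2 change of a member without a call, -1.22 (SE 0.52, adjusted p = 0.166) with the diet in VB mice, at 0.245 CPM per kb; it was named after its values were seen. Without mouse 2 of the Western diet VB group this was -1.91 with an adjusted p of 0.0393, past the threshold. Beside Fkbp4, 4 FKBP members of the cytosol, nucleus or mitochondrial surface were tested and 0 passed. Fkbp8, which sits in the outer mitochondrial membrane, read 249, 243, 250.1, 252 and 244 CPM in control diet vehicle mice and 214, 208, 243, 226 and 219 in control diet VB mice. The VB mice were all lower, but the change of -0.16 (SE 0.07, adjusted p = 0.392) did not pass.

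The chaperones that these proteins serve give the setting. Of 12 Hsp70-class genes, a list chosen with earlier results of these data known, 5 rose and 0 fell with VB on the Western diet. The median log2 change was 0.38, and of all genes 3.33% rose and 3.86% fell. With the diet in vehicle mice 4 of the 12 fell and 0 rose, with a median of -0.37, where 7.59% of all genes fell and 8.92% rose. Hspa1a and Hspa1b, the inducible and near-identical Hsp70 genes whose reads can be hard to assign, rose with VB on the Western diet by 3.05 (SE 0.39, adjusted p = 0.000132) and 2.70 (SE 0.41, adjusted p = 0.000893). Hsph1, an exchange factor for Hsp70, rose by 0.88 (SE 0.17, adjusted p = 0.00298). Hspa8, the constitutive Hsp70, read 995, 996, 724, 723 and 679.8 CPM in Western diet vehicle mice and 1209, 1299, 1269, 1312 and 1426 in Western diet VB mice, with no overlap. Hspa1a was the 1 gene of that list that changed with VB on the control diet, with a log2 change of -2.0 (SE 0.35, adjusted p = 0.0165).

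Of 13 genes in the list of Hsp90 chaperones and further co-chaperones, 0 changed with VB on either diet. Of 6 Hsp60-class and small heat shock genes 0 changed in any comparison. Of 10 other regulators of Hsp70, Grpel2, a mitochondrial exchange factor, changed. Its log2 change was -1.12 (SE 0.15, adjusted p = 0.000138) with VB on the Western diet. With the diet it was 0.75 (SE 0.15, adjusted p = 0.000883) in vehicle mice and -0.82 (SE 0.15, adjusted p = 0.00112) in VB mice. Grpel2 stood at a mean of 4.83 CPM per kb over 20 mice. Grpel1, of the same family, stood at 40.9, with group means from 39.3 to 43.8. The 3 heat shock factor genes did not change in any comparison.

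The 4 genes left out by the rule belong to the same families. Dnajb1, the main inducible class B partner of Hsp70, rose with VB on the Western diet by 1.08 (SE 0.15, adjusted p = 0.000266), Bag3, its inducible BAG protein, by 1.12 (SE 0.13, adjusted p = 7.26e-05), and Dnajb9, an ER J protein of the unfolded protein response, by 0.86 (SE 0.16, adjusted p = 0.00201). With the diet in vehicle mice these 3 had log2 changes of -0.96, -0.72 and -0.80, each called lower. Fkbp5, a glucocorticoid-induced FKBP, had a VB effect that differed between the diets by -1.84 (SE 0.49, adjusted p = 0.0286), opposite in sign to Fkbp4. Its levels were 20.9, 43.6, 51.5, 74.2 and 106 CPM in control diet vehicle mice and 135, 131, 94.2, 136 and 160.3 in control diet VB mice, a log2 change of 1.14 (SE 0.35, adjusted p = 0.212) that did not pass.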

How the data were processed

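The authors deposited whole-number read counts per gene symbol for 40 lane files of 20 mice; per the labels' protocols, libraries came from Trizol-extracted liver RNA with a TruSeq kit. Per the submitters' processing notes the reads were placed on GRCm38. How they were aligned and counted, with which annotation and strand setting, is not given in the sources used here; genes that overlap or share reads are therefore uncertain, and 30 of 63 members overlap another annotated gene. Groups came from titles, also for the lane file whose treatment label conflicts. The 2 lanes of a mouse were summed after a chi-square check (1.33 to 1.49 per degree of freedom between lanes, at least 17.7 between mice of a group). Each mouse is 1 replicate; p-values measure the spread between mice, which at this depth exceeded counting error.

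Analysis used R 4.3.3, edgeR 4.0.16, limma 3.58.1 and DESeq2 1.42.0. Genes were filtered by filterByExpr (minimum count 10, total 15), scaled by TMM and fitted with the robust quasi-likelihood model over all 4 groups (16 residual degrees of freedom); p-values were adjusted by Benjamini-Hochberg over 12616 genes, called under 0.05. SE is the size of the log2 change divided by the root of F. Log CPM for the clock score and for correlations used a prior count of 2. The procedure was also run on simulated data for VB on the Western diet. The changes planted there were larger than those of the members called in that comparison, so the run does not bear on calls of this size. Positions are from GENCODE on GRCm38, promoters from RefSeq. Named genes were all chaperonin subunits and the 4 Hsp90 co-chaperones, every called member, the highest member of each role and up to 3 called partners a list with the smallest p, plus the 4 genes left out by the rule. The diet comparisons of the list of Hsp90 chaperones are not reported here. The members and lists were chosen with earlier results of these data known. Alternatives were other scaling, tools, filters, groups in the fit, single lanes, Mup genes left out of library sizes, the clock score as a covariate, the mouse number as a replicate block and leaving out each mouse.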

Additional observations from a re-analysis of the deposited data

Results flagged for a closer look

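The VB effect differed between the diets for 4 members by edgeR's test of the difference itself: Dnajb4 by 0.97 (SE 0.19, adjusted p = 0.00331) on the log2 scale, Fkbp4 by 0.54 (SE 0.11, adjusted p = 0.00335), Fkbp11 by 0.91 (SE 0.27, adjusted p = 0.0405) and Dnajb11 by 0.58 (SE 0.17, adjusted p = 0.0411), each a more positive VB effect on the Western diet. For Dnajb4 the VB group mean lay above vehicle on the Western diet (30.1 ± 4.39 against 21.2 ± 4.59 CPM; SD, n = 5) and below it on the control diet (21.9 ± 2.41 against 30.3 ± 4.41).

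Each of 30 named members was read in each of the 4 groups, which gave 120 sets of 5 values from the same 20 mice. The rate of about 1 in 20 for independent sets is therefore no yardstick for their number. In 9 of the 120 sets 1 mouse lay far from the other 4 relative to the set's range. In 4 of them the genes share a mouse, the fifth of the Western diet VB group, which was high at 121 CPM for Cct3, 125.4 for Cct5, 125.3 for Tcp1 and 137 for Dnaja3. Fkbp2 was high in mouse 4 of the Western diet vehicle group, at 163.0 CPM, and in mouse 4 of the Western diet VB group, at 116 CPM. Ahsa1 was high in mouse 4 of the control diet vehicle group, at 97.6 CPM. Dnajc7 was low in mouse 1 of the control diet vehicle group, at 29.3 CPM, and Dnajb2 in mouse 5 of the control diet VB group, at 50.8 CPM.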

How the results depend on the processing

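With VB on the control diet 0 members were called in every alternative run. With VB on the Western diet the count of 6 became 2 when only the groups compared were fitted and 0 with the clock score as a covariate, and leaving out each mouse gave 2 to 9. With the diet in vehicle mice the count of 10 became 0 with the clock score, and 6 to 11 on leaving out each mouse. With the diet in VB mice the count of 5 became 3 with the clock score, and 3 to 7 on leaving out each mouse. For the difference of the VB effects the count of 4 became 7 with DESeq2, 2 with no low-count filter and 0 with the clock score, and 2 to 10 on leaving out each mouse. The lowest counts came without mouse 2 or 5 of the Western diet vehicle group or mouse 2 of the Western diet VB group for VB on the Western diet, without mouse 1 of the control diet vehicle group for the diet in vehicle mice, without mouse 2, 3, 4 or 5 of the control diet VB group or mouse 4 of the Western diet VB group for the diet in VB mice, and, for the difference, without mouse 1 or 3 of the control diet vehicle group, 3, 4 or 5 of the control diet VB group, 2 or 5 of the Western diet vehicle group or 2 or 5 of the Western diet VB group. The highest of each of these came without mouse 4 of the Western diet vehicle group. Of 25 calls of a gene in a comparison, 3 kept theirs with the clock score as a covariate, 21 lost it and 1, Cct7 with the diet in vehicle mice, turned to a log2 change of 0.0059; the cause was not tested. Over 500 refits that left out a mouse 383 calls were kept and 117 lost, and over 271 other refits 240 were kept and 31 lost, with the same direction in all of these.

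Over all genes, the 19 calls for VB on the control diet became 164 with DESeq2, 66 with only the groups compared, 65 with the replicate block, 45 with limma-voom, 36 with lane 2 only, 30 without Mup genes in library sizes, 29 with upper-quartile scaling and 0 with the clock score. The 907 for VB on the Western diet became 464 with only the groups compared and 2 with the clock score, the 2083 for diet in vehicle mice 28 with the clock score, and the 964 for the difference 1 with the clock score. Mouse numbers are not tied to animals across groups by the labels. Same-numbered mice had correlations of -0.088 to 0.466 (median 0.075 over 30 pairs, 10 of them over 0.1), and 9 of 20 mice correlated best with their own number. How many would do so at random was not worked out, and whether mice of the same number shared handling was not tested. With the mouse number as a replicate block, members called were 0, 5, 10, 5 and 3 in the order of comparisons above. Depth limits Cct6b, with SEs of 0.47 to 0.68 that exceeded its change in all 5 comparisons, and Fkbp10, with SEs of 0.49 to 0.73.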
